A study of Mus musculus with 18 samples.

Results

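The INK4 proteins, the Kip proteins and the D cyclins decide together whether the kinases CDK4 and CDK6 are active in the first gap phase of the cell cycle. D cyclins (Ccnd1, Ccnd2, Ccnd3) are the activating subunits of CDK4 and CDK6, and the active kinase phosphorylates the retinoblastoma protein and its relatives, which then release E2F transcription factors. The 4 INK4 genes (Cdkn2a, Cdkn2b, Cdkn2c, Cdkn2d) encode inhibitors that bind CDK4 and CDK6 themselves, whereas the Kip genes taken here (Cdkn1b, Cdkn1c) encode inhibitors of cyclin-bound kinases, CDK2 complexes above all. Small cell lung cancer commonly lacks RB, the main target of the cyclin D kinases, and high p16, the INK4 product of Cdkn2a, is a known feature of RB-deficient tumors. These 9 genes were taken by name from the 46078 genes of the RNA-seq count table. The peaks assigned to them were the 43 of 111664 ATAC-seq peaks that overlap a window from 5000 bp upstream of the gene start to the gene end, and no peak fell into 2 of these windows.

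The study asked what the arginine methyltransferase CARM1, and its methylation of the transcription factor NFIB, do in a mouse model of small cell lung cancer. TKO mice carry conditional (L/L) alleles of Rb1, Rbl1 and p53, as the labels spell them, while the study's Results name Rbl2 in place of Rbl1. TKO;Carm1KO mice (CARM1 knockout) have a conditional Carm1 allele in addition, and TKO;NfibR388K mice (NFIB mutant) have a knock-in that replaces the methylated arginine of NFIB by lysine. Adenoviral Cre was given into the trachea at 8 weeks of age and tumors were collected 28 weeks later, so that all 9 libraries of each assay share the 3 conditional tumor suppressor alleles and the virus. The conditional alleles are deleted only in those cells, but the Nfib knock-in is in every cell of the animal. By the study's methods, RNA and open chromatin were measured in cells sorted for a tdTomato reporter that Cre switches on; elsewhere tumor biopsies or cancer cell lines are named, and which of these was used could not be settled. There were 3 libraries per genotype and assay, which the labels give as independent animals on a mixed strain background.

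RNA-seq libraries held 15848866 to 20915057 counted fragments or reads and ATAC-seq libraries 26917178 to 47653979 reads on peaks, and 15514 genes and 111116 peaks passed edgeR's filter on low counts, all 9 genes and all 43 peaks among them. Reads that htseq-count gave to no gene (no feature) separated the genotypes, at 12.2, 9.995 and 11% of the RNA-seq counts in TKO and 3.65 to 5.17% in the 6 mutant libraries, and the part of this in the differences from TKO was not tested. Levels are in CPM, counts per 1000000 counted reads after scaling by edgeR's TMM factors. Calls needed an adjusted p under 0.1 together with a log2 difference of 0.8 or more in size for genes and 0.5 or more for peaks. With 3 libraries against 3, exact permutation of 1 gene's values cannot give a p below 0.1, so the tests rest on edgeR's quasi-likelihood fit over all genes or all peaks. Scaling by library totals in place of TMM moved the median log2 difference of all genes by -0.27 in CARM1 knockout and -0.33 in NFIB mutant, and that of all peaks by 0.57 in both.

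Carm1 itself read 97.7, 103 and 44.5 CPM in TKO, 63.4, 79.1 and 50.8 CPM in the libraries labelled CARM1 knockout, and 100.4, 104 and 102 CPM in NFIB mutant. The CARM1 knockout and TKO ranges overlapped (log2 difference -0.34, adjusted p = 0.41), and a count over the whole gene cannot show the loss of single exons, so this gene does not check the labels here. Nfib fell by 2.06 in CARM1 knockout and by 2.49 in NFIB mutant on the log2 scale, both called.

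Markers of other cell types differed between the genotypes. The summed level of 8 fibroblast markers was 130 to 186 CPM in TKO, 15053 to 26808 CPM in CARM1 knockout and 10242 to 16333 CPM in NFIB mutant. Of these 8 genes, 7 were called higher in CARM1 knockout and 6 in NFIB mutant. Fbln1, at 166, 149 and 63.9 CPM in TKO a large part of the TKO sum, was called in neither. Lum was not called in NFIB mutant. The defining collagen gene Col1a1 read 0.29 to 3.85 CPM in TKO against 6204 to 10055 and 2372 to 7796 CPM in the mutants. The 10 neuroendocrine markers summed to 1588 to 3740 CPM in TKO and to 33.5 to 51.0 CPM in NFIB mutant, so the labelled tumor type was not evident from its defining markers in NFIB mutant. In CARM1 knockout the neuroendocrine sum was 59.3 and 188 CPM in replicates 1 and 2 but 1793 CPM in replicate 3. Summed leukocyte markers were 3.37 to 55.6 CPM in TKO, 180 to 2673 CPM in CARM1 knockout and 26.7 to 524 CPM in NFIB mutant, with 2 of their 8 genes at 0 in each mutant library. Of the 6 leukocyte genes tested, 5 were called higher in CARM1 knockout and 2 in NFIB mutant. In NFIB mutant replicate 1, Lyz2 gave 404 CPM of the leukocyte sum of 435 CPM, while Ptprc read 0.365 CPM and Itgam 0.0608 CPM. Smooth muscle markers summed to 3.94 to 9.85 CPM in TKO, 512 to 1927 CPM in CARM1 knockout and 125 to 561 CPM in NFIB mutant. Of these 5 genes, 4 were called higher in CARM1 knockout and 3 in NFIB mutant, and Des was called in neither. Myh11 read 0.673, 0.437 and 0.798 CPM in TKO and 0.304, 0.555 and 0.254 CPM in NFIB mutant, not called. Endothelial markers stayed at or below 17.4 CPM in every library. Lung epithelial markers summed to 14 to 46.3 CPM in TKO. By replicate they summed to 2.64, 6.77 and 654 CPM in CARM1 knockout and to 2551, 166 and 1.97 CPM in NFIB mutant. Sftpb gave 1737 CPM of the sum in NFIB mutant replicate 1. Mesothelial markers summed to at most 94.7 CPM in any library. The part of these cell types in the results that follow was not tested, and in bulk samples fewer cells of a type and less RNA per cell cannot be told apart. CARM1 knockout replicate 3 stands apart by its neuroendocrine markers and also had the highest leukocyte and lung epithelial sums of its genotype. It lay with the other mutant libraries for the genes called below, and 7 of the 9 genes were called in each mutant without it as with it.

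Promoter sequences show how unlike the starts of these inhibitor genes are. Cdkn2a has 2 starts on the minus strand of chromosome 4 (gene at 89274471 to 89294653). The upstream start makes the Arf transcript, whose product p19ARF blocks the p53 ligase MDM2, and the start inside its first intron makes the transcript of p16INK4a. Cdkn2b (chromosome 4, 89306299 to 89311039, minus strand) encodes p15INK4b, and Cdkn1b (chromosome 6, 134920401 to 134925513, plus strand) encodes p27KIP1. The stretches upstream of these 4 starts are shown because, with TMM scaling, the first and the third gained accessibility in the mutants while the second and the fourth lost it. Both losses were not called with library totals, as described with the peaks. The stretches are from RefSeq's table for GRCm38.p6, given 5′ to 3′ on the strand of the gene, with capitals for letters that match a searched motif:

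Cdkn2a, p16INK4a start, chr4:89282193-89282442, minus strand: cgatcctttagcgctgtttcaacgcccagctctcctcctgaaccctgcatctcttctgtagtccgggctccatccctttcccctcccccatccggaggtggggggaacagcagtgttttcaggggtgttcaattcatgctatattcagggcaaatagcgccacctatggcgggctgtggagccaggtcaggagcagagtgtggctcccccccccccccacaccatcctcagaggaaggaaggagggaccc

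Cdkn2a, Arf start, chr4:89294654-89294869, minus strand: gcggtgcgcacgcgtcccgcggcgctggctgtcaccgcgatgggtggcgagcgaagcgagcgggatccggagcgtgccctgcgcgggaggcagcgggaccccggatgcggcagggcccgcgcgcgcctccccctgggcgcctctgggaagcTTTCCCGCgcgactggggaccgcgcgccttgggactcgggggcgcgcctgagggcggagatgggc

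Cdkn2b, chr4:89311040-89311282, minus strand: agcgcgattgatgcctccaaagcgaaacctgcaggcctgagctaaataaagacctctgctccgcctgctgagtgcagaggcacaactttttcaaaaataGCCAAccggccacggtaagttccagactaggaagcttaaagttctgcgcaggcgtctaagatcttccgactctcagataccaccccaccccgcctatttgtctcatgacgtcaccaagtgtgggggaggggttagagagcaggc

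Cdkn1b, chr6:134920151-134920400, plus strand: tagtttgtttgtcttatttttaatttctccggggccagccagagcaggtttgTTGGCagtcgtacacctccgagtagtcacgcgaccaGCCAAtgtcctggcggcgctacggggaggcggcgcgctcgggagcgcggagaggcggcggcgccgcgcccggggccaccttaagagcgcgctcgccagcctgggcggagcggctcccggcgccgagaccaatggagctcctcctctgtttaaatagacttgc

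The Arf stretch was the richest of these in G and C (78.7% over 216 bases, with 35 CpG), followed by Cdkn1b (64.4% over 250 bases, 28 CpG), the p16INK4a start (60% over 250 bases, 7 CpG) and Cdkn2b (53.5% over 243 bases, 11 CpG). Capitals in the Arf stretch mark TTTCCCGC, an E2F word. In Cdkn2b they mark GCCAA and in Cdkn1b TTGGC and GCCAA, which are the core word TTGGC of nuclear factor I, the family of NFIB, on one strand or the other. The p16INK4a stretch held none of the words searched. Searches covered both strands and the words TTGGC, TTTGGCGC, TTTCGCGC and TTTCCCGC (E2F), TGANTCA (AP-1) and the full nuclear factor I site, in which TTGGC is followed by GCCAA after 5 bases and which therefore contains the core word. Of all 32851 promoters in the table, 46.7% held TTGGC, 1.07% TTTCCCGC, 0.514% TTTGGCGC, 0.323% TTTCGCGC, 7.81% TGANTCA and 0.0365% the full nuclear factor I site. A match is a description of letters, neither a binding site nor a cause. Promoters of 6 of the 9 genes matched the table. Cdkn1c, Ccnd1 and Ccnd2 are named only.

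Of the 9 genes, 5 were higher and 2 were lower than in TKO in CARM1 knockout, and the same 5 and 2 in NFIB mutant. Cdkn2a, Cdkn2b, Ccnd1, Ccnd2 and Ccnd3 rose, Cdkn1b and Cdkn1c fell, and Cdkn2c and Cdkn2d were not called. Over all genes tested the shares called were 20.5% higher and 18.3% lower for CARM1 knockout, and 22.3% higher and 23.5% lower for NFIB mutant. For the 5 genes that rose, all 6 mutant libraries were above all 3 TKO libraries, as they were for 22.3% of all genes, and for the 2 that fell all 6 were below, as for 23.3% of all genes. The median log2 difference of the 9 genes was 1.78 in CARM1 knockout and 2.21 in NFIB mutant, beside -0.03 and -0.05 over all genes. Both comparisons use the same 3 TKO libraries, so the similarity of the mutants against TKO is not independent evidence, and each is given with its own values.

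**Figure D1:**
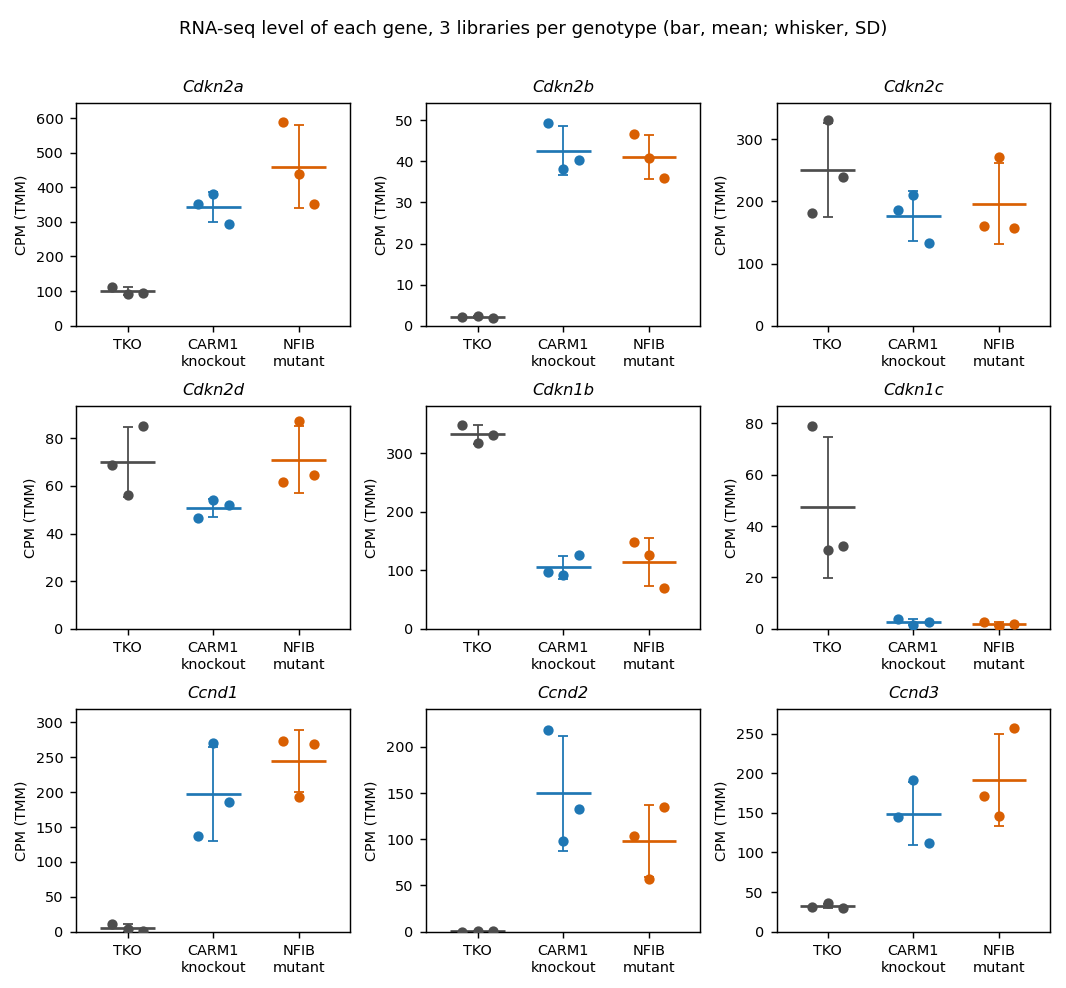
RNA-seq level of each of the 9 genes in CPM on a linear axis from 0, with 1 point per library for TKO, CARM1 knockout and NFIB mutant (n = 3 each), a bar at the mean and a whisker of 1 SD. The mutant points lie above all TKO points for Cdkn2a, Cdkn2b and the 3 D cyclins and below them for Cdkn1b and Cdkn1c, while for Cdkn2c and Cdkn2d at least 1 mutant overlaps with TKO.

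Cdkn2a (ENSMUSG00000044303) read 113, 92.5 and 93.4 CPM in TKO, 350.3, 381 and 295 CPM in CARM1 knockout, and 588, 438 and 352 CPM in NFIB mutant. No mutant library came near the TKO range, and the lowest mutant library was CARM1 knockout replicate 3. The level rose from 99.6 ± 11.6 CPM (SD, n = 3) to 342 ± 43.5 and 459 ± 120 CPM, a log2 change of 1.78 (SE 0.23, adjusted p = 0.0016, edgeR) in CARM1 knockout and 2.21 (SE 0.23, adjusted p = 0.00065) in NFIB mutant. The count joins the Arf and p16INK4a transcripts, which share their later exons, and cannot say which of them rose. Cdkn2b (ENSMUSG00000073802), its neighbour, had 46, 55 and 41 counts in TKO (2.21, 2.41 and 1.82 CPM). In CARM1 knockout Cdkn2b read 49.3, 38.0 and 40.4 CPM and in NFIB mutant 46.6, 40.9 and 35.8 CPM. The spread within each genotype was small against the gap, which was 19.8-fold in CARM1 knockout and 19.1-fold in NFIB mutant (log2 4.31 and 4.26, SE 0.23 for both, adjusted p = 0.00016 and 0.00015).

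The other INK4 genes did not share this rise. Cdkn2c (ENSMUSG00000028551, chromosome 4, 109660876 to 109667189), which encodes p18INK4c, read 181, 332 and 239 CPM in TKO, 187, 211 and 132 CPM in CARM1 knockout and 161, 271 and 157 CPM in NFIB mutant. The genotypes overlapped, and the log2 differences of -0.50 (SE 0.32) and -0.35 (SE 0.31) did not pass the test (adjusted p = 0.24 and 0.38). Cdkn2d (ENSMUSG00000096472, chromosome 9, 21288410 to 21291407), which encodes p19INK4d, read 69.0, 56.0 and 85.2 CPM in TKO, 46.6, 53.9 and 52.0 CPM in CARM1 knockout and 61.5, 87.2 and 64.4 CPM in NFIB mutant. Its 3 CARM1 knockout libraries lay below the TKO libraries, whereas the NFIB mutant range overlapped with TKO and its highest library was above the highest of TKO. The log2 differences from TKO were -0.46 (SE 0.21, adjusted p = 0.12) and 0.02 (SE 0.21, adjusted p = 0.95), and intervals of 2 SE ran from -0.88 to -0.05 and from -0.40 to 0.44.

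Both Kip genes fell. Cdkn1b (ENSMUSG00000003031) read 349, 318 and 331 CPM in TKO, 96.2, 91.7 and 127 CPM in CARM1 knockout and 148, 126 and 68.9 CPM in NFIB mutant. The mutant libraries were all well below the TKO libraries, which lay close together, and Cdkn1b was 3.17-fold lower in CARM1 knockout (log2 -1.66, SE 0.28, adjusted p = 0.0044) and 2.90-fold lower in NFIB mutant (log2 -1.54, SE 0.28, adjusted p = 0.0047). Cdkn1c (ENSMUSG00000037664, chromosome 7, 143458339 to 143461050), an imprinted gene that encodes p57KIP2, read 78.8, 30.6 and 32.3 CPM in TKO, 3.66, 1.52 and 2.64 CPM in CARM1 knockout and 2.67, 0.925 and 1.72 CPM in NFIB mutant. TKO replicate 1 was far above the other TKO libraries, yet even the lower TKO libraries exceeded every mutant library. The fall was 18.1-fold in CARM1 knockout (log2 -4.18, SE 0.61, adjusted p = 0.0027) and 26.6-fold in NFIB mutant (log2 -4.73, SE 0.63, adjusted p = 0.0015). Without TKO replicate 1 it was -3.58 and -4.14 on the log2 scale, still called.

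All 3 D cyclins rose, from different starting levels. Ccnd1 (ENSMUSG00000070348, chromosome 7, 144929931 to 144939925) read 11.2, 3.54 and 0.975 CPM in TKO, 137, 270.3 and 186 CPM in CARM1 knockout, and 273, 193 and 268 CPM in NFIB mutant. The TKO libraries differed among themselves by over 1 order of magnitude but stayed below every mutant library. The rise was 37.7-fold and 46.6-fold (log2 5.23, SE 0.84, adjusted p = 0.0038; log2 5.54, SE 0.85, adjusted p = 0.0025), and without TKO replicate 1 it was 6.47 and 6.77 on the log2 scale. Ccnd2 (ENSMUSG00000000184, chromosome 6, 127125162 to 127152193) was the lowest of the 9 genes in TKO, with 0, 21 and 10 counts (0, 0.919 and 0.443 CPM). In CARM1 knockout Ccnd2 read 219, 98.0 and 133 CPM and in NFIB mutant 103, 56.5 and 134 CPM. Since a TKO library is at 0, the fitted log2 change of 8.33 (SE 1.02, adjusted p = 0.0015) in CARM1 knockout and 7.72 (SE 1.0, adjusted p = 0.0014) in NFIB mutant depends on the prior count, and without TKO replicate 2 it was 9.33 and 8.72.

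Ccnd3 (ENSMUSG00000034165, chromosome 17, 47505051 to 47599691) was the D cyclin with the tightest TKO values, 31.3, 35.9 and 30.2 CPM. It read 144, 191 and 111 CPM in CARM1 knockout and 171, 146 and 257 CPM in NFIB mutant, with no overlap. The rise was 4.59-fold (log2 2.20, SE 0.28, adjusted p = 0.0016) and 5.88-fold (log2 2.56, SE 0.28, adjusted p = 0.0008). A pair of annotated genes meets the ends of D cyclin genes on the other strand, LTO1 at Ccnd1 with 144 to 409 counts a library and Bysl at Ccnd3 with 599 to 2072 counts. The strand setting of the counting is not given in the sources used here, and reads in such overlaps cannot be told apart without strand. The genes antisense to Ccnd2 had 0 counts (Gm43126) and 0 to 10 counts (9330179D12Rik).

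The mutants were also set against each other. In the edgeR fit of all 9 libraries with TMM no gene and no peak was called between CARM1 knockout and NFIB mutant, which makes 0.0% higher and 0.0% lower for both genes and peaks. Other edgeR settings called a few, at most 2 genes higher and 3 lower (at least 10 counts in every library) and 23 peaks higher and 27 lower (without TKO replicate 3), and with library totals 1 peak was higher and 6 lower. At an unadjusted p under 0.05 in edgeR there were 1414 genes and 6813 peaks. Cdkn2d (log2 difference -0.48) was the 1 of the 9 genes among them, and a peak in an intron of Ccnd3 the 1 of the 43 peaks. DESeq2 called 317 genes higher and 223 lower and 523 peaks higher and 537 lower, with 0 of the 9 genes and 1 of the 43 peaks, again the Ccnd3 peak, among them. The log2 difference, CARM1 knockout minus NFIB mutant, was -0.43 for Cdkn2a with an interval of 2 SE from -0.86 to 0.01, and 0.05 for Cdkn2b with an interval from -0.35 to 0.45. For Ccnd3 it was -0.36 (-0.89 to 0.17), and for Cdkn1b -0.13 (-0.68 to 0.42). Intervals were wider for Cdkn1c (-0.55 to 1.65), Ccnd1 (-1.70 to 1.09) and Ccnd2 (-0.84 to 2.07), so that for these genes the data leave room for differences of more than 2-fold between the mutants. Cdkn2c ran from -0.78 to 0.48 and Cdkn2d from -0.90 to -0.07.

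**Figure D2:**
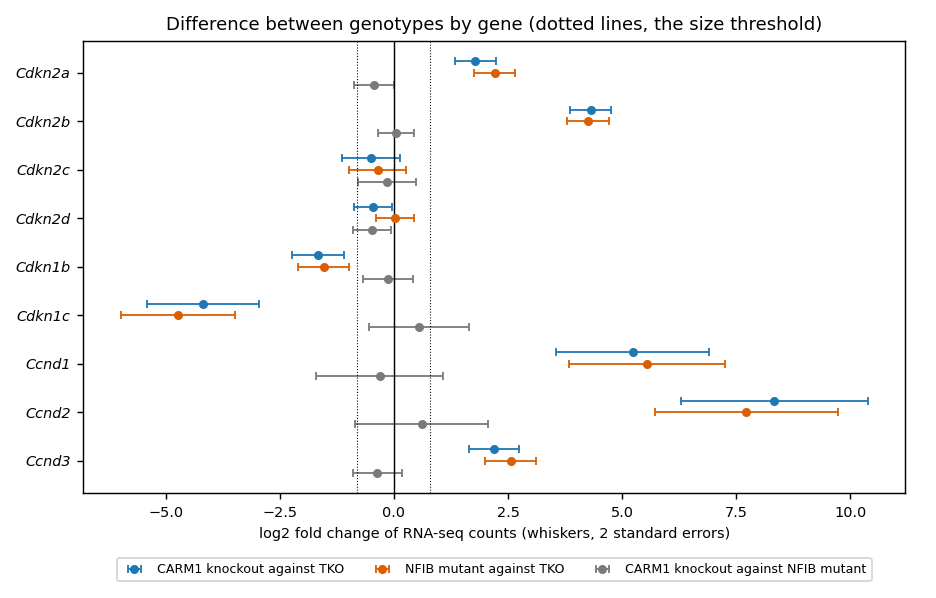
Fitted log2 fold change of the RNA of each gene, for CARM1 knockout less TKO, NFIB mutant less TKO and the 2 mutants set against each other, with whiskers of 2 SE from the edgeR fit of all 9 libraries and dotted lines at the size threshold of 0.8. The first 2 comparisons run from -4.73 for Cdkn1c to 8.33 for Ccnd2, and the third stays between -0.48 and 0.61.

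Levels of different genes were compared as TPM, which divides the counts by the length of the annotated exons. In TKO the order was Cdkn2c (381 ± 98.3 TPM, SD, n = 3), Cdkn2a (350.2 ± 49.2), Cdkn1b (301 ± 27.0), Cdkn2d (184 ± 47.4), Cdkn1c (95.9 ± 57), Ccnd3 (15.2 ± 0.557), Cdkn2b (6.32 ± 0.609), Ccnd1 (4.59 ± 4.77) and Ccnd2 (0.193 ± 0.189). Neighbours in that order whose ranges over the 3 libraries overlapped were Cdkn2c with Cdkn2a, Cdkn2a with Cdkn1b, Cdkn2d with Cdkn1c, and Cdkn2b with Ccnd1. The 5 inhibitor genes at the top were above every D cyclin in every TKO library. In CARM1 knockout Cdkn2a led with 956 ± 78.4 TPM, followed by Cdkn2c (215 ± 39.8), Ccnd1 (138 ± 44.8), Cdkn2d (106 ± 10.4), Cdkn2b (101 ± 13.3), Cdkn1b (76.2 ± 18), Ccnd3 (55.4 ± 12.8), Ccnd2 (52.3 ± 20.8) and Cdkn1c (4.21 ± 1.71). All neighbours from Cdkn2c to Ccnd2 overlapped with the next, whereas Cdkn2a and Cdkn1c stood alone. NFIB mutant had the same order, from Cdkn2a at 1221 ± 390.1 TPM to Cdkn1c at 2.71 ± 1.47 TPM.

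Within families, the makeup changed with the level. Summed D cyclin RNA was 15.9 to 24.9 TPM in TKO, 220.1 to 285 TPM in CARM1 knockout and 196 to 292 TPM in NFIB mutant. Ccnd3 made up 78.6% of it on average in TKO (59.9 to 93.1% by library) but 22.5% in CARM1 knockout and 25.7% in NFIB mutant. Ccnd1 held 20.3% on average in TKO, with 5.60 to 40.1% by library. It became the leading D cyclin in the mutants, with 55.3% (42.2 to 64.1%) and 62.2% (56.7 to 65.6%), and Ccnd2 went from 1.08% to 22.3% and 12%. The INK4 sum was 922 ± 45.1 TPM in TKO, 1377 ± 108 TPM in CARM1 knockout and 1677 ± 422 TPM in NFIB mutant. Cdkn2c and Cdkn2a shared its lead in TKO (41.2% and 38.2%), and in the mutants Cdkn2a alone held 69.4% and 72.2%. Summed Kip RNA went the other way, with 397 ± 78.2 TPM in TKO and 80.4 ± 18.5 and 81.3 ± 32.6 TPM in the mutants, of which Cdkn1b was 77%, 94.7% and 96.4%. CDK4, the common partner of both families, was at 588 ± 79.3 TPM in TKO, 455 ± 83.4 TPM in CARM1 knockout and 388 ± 26.9 TPM in NFIB mutant. TPM values carry no TMM factor, so their differences between genotypes can depart from those of the fit. In the fit Cdk4 was not called, with log2 differences of -0.04 and -0.18.

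**Figure D3:**
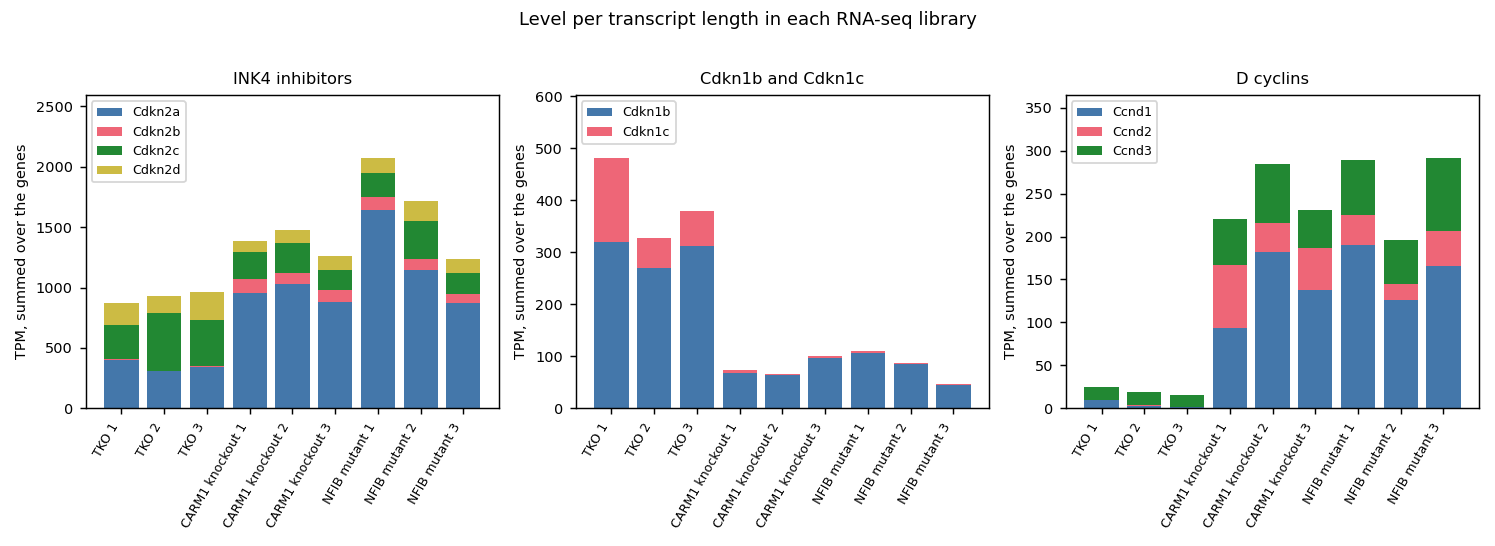
Summed TPM of the INK4 genes, the Kip genes and the D cyclins in each of the 9 libraries, as stacked bars from 0 with 1 colour per gene and 1 bar per library. The INK4 bars of the mutants are mostly Cdkn2a, the Kip bars shrink with Cdkn1b and Cdkn1c, and the D cyclin bars grow from at most 24.9 TPM in TKO to at least 196 TPM.

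A list of 56 genes around these members was described with the same fit, all of them tested. In CARM1 knockout 6 were higher and 19 lower than in TKO, and in NFIB mutant 7 were higher and 15 lower, beside the shares of all genes given above. Their median log2 difference was -0.52 and -0.47. The CARM1 knockout count depends on single libraries, with 14 called without CARM1 knockout replicate 1 and 16 without TKO replicate 1. With library totals the counts were 4 higher and 27 lower in CARM1 knockout and 4 higher and 25 lower in NFIB mutant. Among 15 further partners in the first gap phase, Cdk6, the other kinase partner of D cyclins, read 1.15, 1.44 and 8.73 CPM in TKO, 56.5, 83.3 and 34.9 CPM in CARM1 knockout and 34.5, 48.0 and 57.8 CPM in NFIB mutant. It rose by 3.94 (SE 0.83, adjusted p = 0.010) and 3.63 (SE 0.82, adjusted p = 0.011) on the log2 scale, and none of its mutant libraries overlapped with TKO. Cdk4 did not pass the test in either mutant, with log2 differences of -0.04 and -0.18 (SE 0.22 for both). Ccne2, a cyclin of CDK2, fell by 1.51 and 2.03 on the log2 scale. Cdkn1a, the p53 target gene for p21CIP1, read 77.1, 37.9 and 60.1 CPM in TKO, 25.8, 22 and 41.9 CPM in CARM1 knockout and 94.7, 77.9 and 40.2 CPM in NFIB mutant. Its log2 difference was -0.96 in CARM1 knockout, called at an adjusted p of 0.098 although the libraries overlapped, and 0.28 in NFIB mutant, not called.

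Of 13 pocket protein and E2F genes, 1 was higher and 6 lower in CARM1 knockout and 1 was higher and 4 lower in NFIB mutant. E2f4 was the higher one in both mutants (log2 1.11 and 1.31). Rb1 read 92.3, 60.4 and 73.2 CPM in TKO, 23.1, 18.4 and 48.7 CPM in CARM1 knockout and 32.6, 31.2 and 8.58 CPM in NFIB mutant. It fell by 1.32 (SE 0.55, adjusted p = 0.093) and 1.64 (SE 0.55, adjusted p = 0.044) on the log2 scale, with no overlap. Its conditional alleles are carried by all 3 genotypes, and counts over the whole gene do not separate deleted from intact alleles. In the turnover list of 9 genes, 1 was higher and 3 lower in each mutant, and Fbxo4, an F-box protein gene, was the higher one (log2 0.85 and 1.88).

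The 19 listed regulators of the INK4 locus had 2 genes higher and 8 lower in CARM1 knockout and 2 higher and 6 lower in NFIB mutant. The Polycomb genes named by the rule fell, Ezh2, the methyltransferase for lysine 27 of histone H3, from 190.4, 232 and 114 CPM in TKO to 54.2, 66.0 and 60.1 CPM in CARM1 knockout and 53.7, 61.8 and 45.7 CPM in NFIB mutant. Its log2 changes were -1.57 and -1.74, and no mutant library overlapped with TKO. Cbx2, a Polycomb reader, fell by 2.05 and 2.31 on the log2 scale. Ets1, a transcription factor gene known to act on the p16INK4a promoter, rose by 1.87 and 1.83. None of the 56 genes was called between the mutants by edgeR, and DESeq2 called 1, which was the lower of the 2 in CARM1 knockout.

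Open chromatin over these genes moved in the same comparisons. Of the 43 peaks, CARM1 knockout had 19 higher and 6 lower than TKO, and NFIB mutant had 20 higher and 7 lower. Over all peaks the shares called were 38.7% higher and 32.4% lower for CARM1 knockout and 39.3% higher and 34.0% lower for NFIB mutant. All 6 mutant libraries were above all 3 TKO libraries in 21 of the 43 peaks, beside 33.1% of all peaks, and below them in 5, beside 28.6%. Their median log2 difference was 0.73 in CARM1 knockout and 0.71 in NFIB mutant, beside 0.22 in both over all peaks. The split depends on the scaling, with 26 higher and 0 lower in CARM1 knockout and 27 higher and 1 lower in NFIB mutant under library totals. Leaving peaks with over 0.5% of the counts out of the totals gave 22 higher and 3 lower, and 24 higher and 2 lower. The 10 most counted peaks held 13.5 to 32.6% of the reads of a library.

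**Figure D4:**
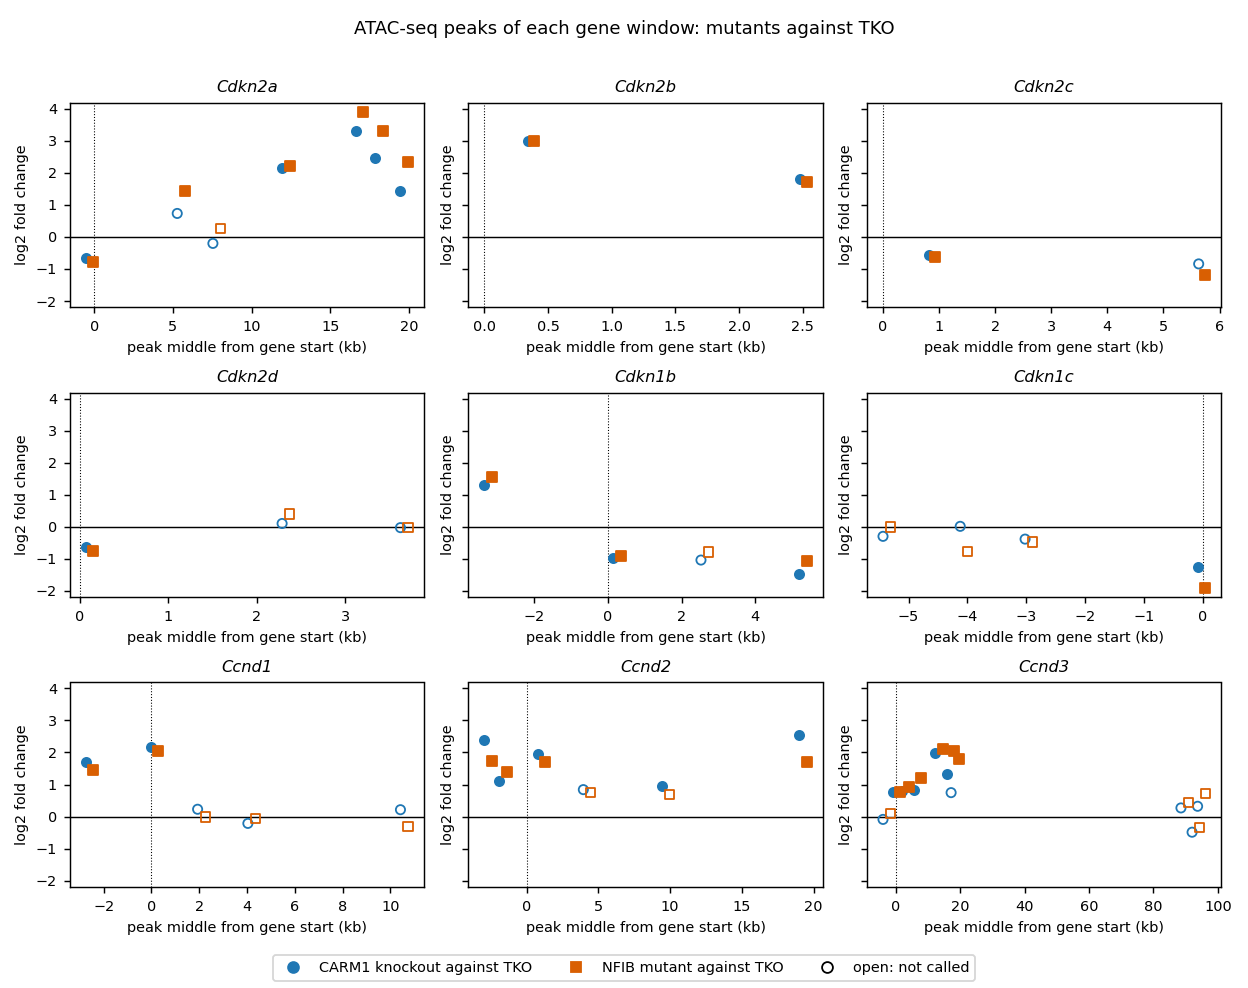
Log2 fold change of each of the 43 peaks against TKO, 1 panel per gene, over the distance of the peak's middle from the gene start in kb, with a circle per peak for CARM1 knockout and a square for NFIB mutant, filled where the peak was called. Peaks of Cdkn2b and Ccnd2 lie above 0 in both mutants, those of Cdkn1c at or below about 0, and Cdkn2a holds the highest, at 3.31 and 3.89. That highest peak (89277436 to 89278143) had only 6, 4 and 5 counts in the TKO libraries.

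The 2 starts of Cdkn2a went in opposite directions. Over the p16INK4a start (chromosome 4, 89281556 to 89283349), accessibility was 1.91, 1.82 and 11 CPM in TKO, 21.5, 24.5 and 19.3 CPM in CARM1 knockout and 19.5, 26.8 and 21.1 CPM in NFIB mutant. TKO replicate 3 was the highest TKO library but was still below all 6 mutant libraries. The log2 rise was 2.15 (SE 0.59, adjusted p = 0.0083, edgeR) and 2.20 (SE 0.59, adjusted p = 0.0071), and 3.55 and 3.59 without TKO replicate 3. Over the Arf start (89293556 to 89296324), accessibility was 59.8, 59.3 and 54.4 CPM in TKO, 30.6, 43.0 and 36.7 CPM in CARM1 knockout and 28.3, 39.0 and 32.7 CPM in NFIB mutant. It fell by 0.65 (SE 0.17, adjusted p = 0.0064) and by 0.79 (SE 0.17, adjusted p = 0.0022), but with library totals the log2 differences were -0.07 and -0.22 and not called. A ratio within a library does not depend on the scaling. Reads over the p16INK4a start were 3.20, 3.08 and 20.3% of those over the Arf start in TKO, 70.1, 57.1 and 52.6% in CARM1 knockout and 69.0, 68.6 and 64.6% in NFIB mutant. The 2 starts thus changed unequally in every mutant library compared with every TKO library, and this comparison of peaks was chosen after their values were seen.

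Further peaks inside Cdkn2a, downstream of the p16INK4a start, also rose. The one at 89275824 to 89277272 read 0.924, 0.371 and 0.676 CPM in TKO, 5.06, 3.73 and 2.01 CPM in CARM1 knockout and 9.50, 5.22 and 4.65 CPM in NFIB mutant (log2 2.45 and 3.29, both called). At Cdkn2b, the start peak (89309831 to 89311517) read 2.07, 9.21 and 1.94 CPM in TKO, 30.1, 41.6 and 33.9 CPM in CARM1 knockout and 31.4, 41.1 and 33.5 CPM in NFIB mutant. TKO replicate 2 stood out but stayed below the mutants. The log2 rise was 2.99 (SE 0.52, adjusted p = 0.00079) and 3.0 (SE 0.52, adjusted p = 0.0007), and 4.13 in both without TKO replicate 2. In Cdkn2a and Cdkn2b, 9 peaks in all, CARM1 knockout had 6 higher and 1 lower and NFIB mutant 7 higher and 1 lower.

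The start peaks of Cdkn2c and Cdkn2d, whose RNA was not called, were high in every library. Over the Cdkn2c starts (109664791 to 109667848) they read 54.2, 54.1 and 64.4 CPM in TKO, 32.5, 44.1 and 40.0 CPM in CARM1 knockout and 34.7, 44.0 and 33.8 CPM in NFIB mutant. Over the Cdkn2d starts (21290472 to 21292118) they read 81.4, 86.2 and 76.9 CPM in TKO, 45.3, 59.7 and 52.8 CPM in CARM1 knockout and 36.6, 60.3 and 46.9 CPM in NFIB mutant. Both were below TKO in all 6 mutant libraries (log2 -0.57 and -0.62 for Cdkn2c, -0.63 and -0.77 for Cdkn2d, all called). With library totals these differences were 0.00 and -0.07, and -0.04 and -0.19, none called. The Cdkn2c call in CARM1 knockout held in 12 of 17 alternatives and was also lost without CARM1 knockout replicate 1, at -0.45, and without TKO replicate 3, at -0.47. A peak just downstream of Cdkn2d (21286710 to 21288773) read 28.1 to 41.0 CPM across the 9 libraries, with log2 differences of -0.03 and -0.02.

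**Figure D5:**
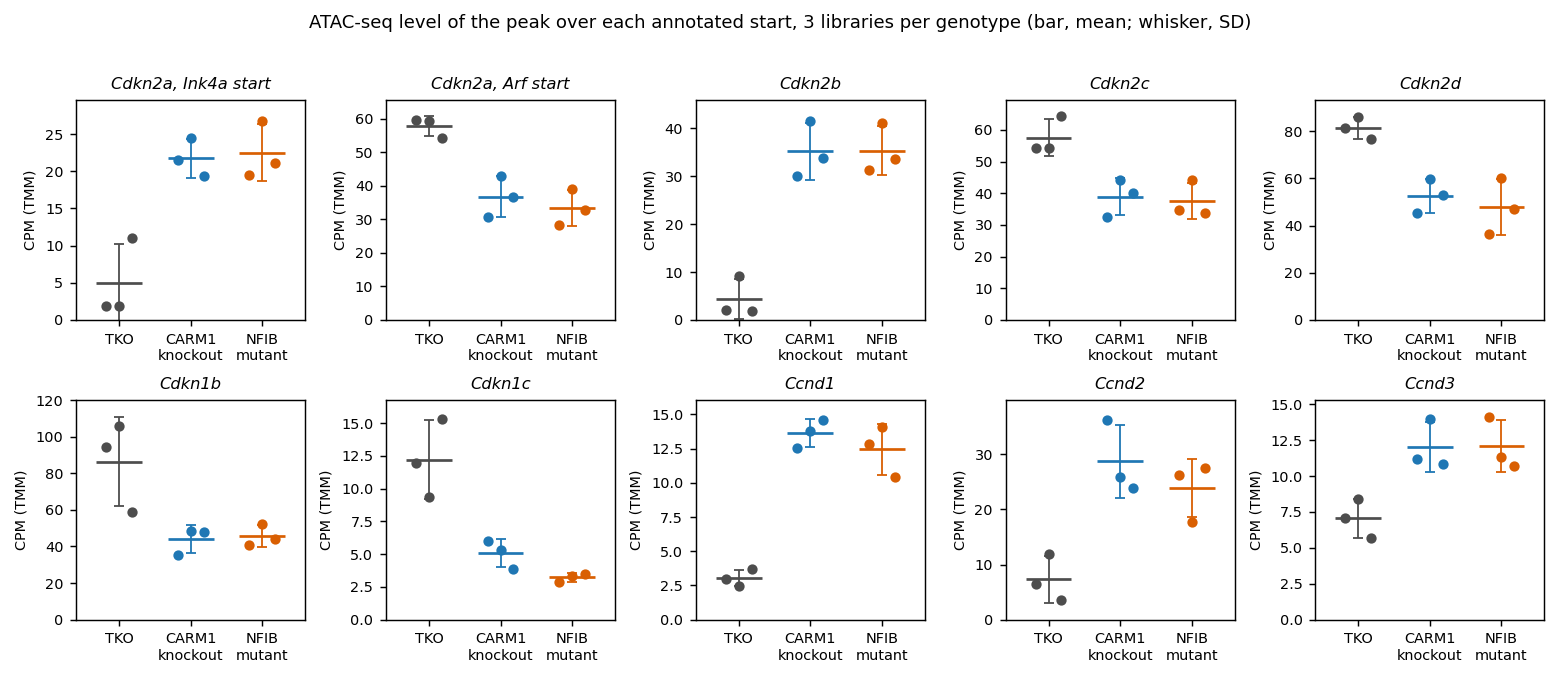
ATAC-seq level in CPM, on a linear axis from 0, of 10 of the 11 member peaks over annotated starts of their own gene (the broad Ccnd3 peak over 6 further starts, not called, is left out), with 1 point per library for TKO, CARM1 knockout and NFIB mutant (n = 3 each), a bar at the mean and a whisker of 1 SD. Mutant points lie above all TKO points at the p16INK4a start, Cdkn2b and the 3 D cyclins, and below them at the Arf start, Cdkn2c, Cdkn2d, Cdkn1b and Cdkn1c.

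At the Kip genes the start peaks fell with the RNA. The Cdkn1b start peak (134919132 to 134922185) read 94.1, 106 and 58.9 CPM in TKO, 35.3, 48.6 and 48.0 CPM in CARM1 knockout and 40.8, 52.4 and 43.8 CPM in NFIB mutant. TKO replicate 3 came close to the mutants without overlap. The fall was 0.97 (SE 0.22, adjusted p = 0.0030) and 0.92 (SE 0.22, adjusted p = 0.0038) on the log2 scale, but the log2 differences were -0.35 and -0.31 with library totals, not called. A small peak upstream (134916562 to 134917764) rose instead, from 3.57, 1.61 and 1.01 CPM in TKO to 5.45, 5.78 and 4.26 CPM in CARM1 knockout and 7.05, 5.89 and 5.10 CPM in NFIB mutant (log2 1.32 and 1.54, both called, and 1.97 and 2.19 without TKO replicate 1). A peak at the 3′ end (134925351 to 134926024) was called lower (log2 -1.47 and -1.06) although its libraries overlapped. In NFIB mutant that call held in only 5 of 17 alternatives. The Cdkn1c start peak (143460335 to 143461816) read 12, 9.36 and 15.3 CPM in TKO, 6.02, 5.32 and 3.89 CPM in CARM1 knockout and 2.87, 3.37 and 3.51 CPM in NFIB mutant. It fell by 1.27 (SE 0.34, adjusted p = 0.0077) and 1.91 (SE 0.35, adjusted p = 0.00092), and with library totals the CARM1 knockout difference was -0.73 and no longer called while the NFIB mutant difference was -1.37 and called. None of the 3 peaks further upstream of Cdkn1c was called.

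Each D cyclin gained accessibility at its start. The Ccnd1 start peak (144938758 to 144940839) read 2.96, 2.47 and 3.68 CPM in TKO, 12.6, 13.8 and 14.6 CPM in CARM1 knockout and 12.9, 14.1 and 10.4 CPM in NFIB mutant. Its log2 rise of 2.17 (SE 0.29, adjusted p = 0.0002) and 2.04 (SE 0.29, adjusted p = 0.00024) was called in all 17 alternatives. The peak upstream of it (144941053 to 144943977) rose from 7.97, 8.47 and 9.97 CPM to 26.1, 28.6 and 30.6 CPM and to 23.1, 24.2 and 24.8 CPM (log2 1.69 and 1.45, SE 0.18 for both, adjusted p = 6.5e-05 and 0.00012), with a narrow spread in every genotype. In contrast, the 3 other Ccnd1 peaks, in introns and past the gene end, were not called. The Ccnd2 peak over 4 annotated starts (127149090 to 127153216), which lies outside the naming rule and was chosen after its values were seen, read 6.47, 12 and 3.59 CPM in TKO, 36.2, 25.9 and 23.8 CPM in CARM1 knockout and 26.2, 17.8 and 27.5 CPM in NFIB mutant. TKO thus had reads at this start in every library, while its RNA was at 0 to 21 counts. The log2 rise was 1.96 (SE 0.39, adjusted p = 0.0016) and 1.69 (SE 0.38, adjusted p = 0.0030). Its upstream peak (127154309 to 127155431) rose by 2.39 and 1.72 and an intronic peak (127132561 to 127133348) by 2.56 and 1.70, all called.

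Ccnd3 is the longest of the 9 genes, with 10 peaks. The peak over its upstream starts (47504231 to 47506116) read 7.08, 8.37 and 5.70 CPM in TKO, 11.2, 14 and 10.8 CPM in CARM1 knockout and 14.1, 11.4 and 10.7 CPM in NFIB mutant. The groups did not overlap, and the rise was 0.77 in both mutants (SE 0.28, adjusted p = 0.030 and 0.027). In CARM1 knockout the call was lost without replicate 2 of that genotype, at 0.65. Intronic peaks rose more, by 1.97 and 2.11 at 47517944 to 47518754 and by 1.32 and 2.05 at 47521387 to 47522477, all called. In NFIB mutant the first of these depended on replicate 3, without which it was 1.47. Another intronic peak (47522940 to 47523699) was the 1 peak that DESeq2 called between the mutants. It read 1.47, 1.21 and 1.52 CPM in CARM1 knockout and 2.66, 2.91 and 3.22 CPM in NFIB mutant, beside 0.956, 0.742 and 0.803 CPM in TKO. Its log2 difference between the mutants was -1.06 (SE 0.39), with an adjusted p of 0.74 in edgeR. Near the 3′ end, a broad peak over 6 further annotated starts (47592801 to 47596720) read 35.0 to 42.9 CPM in TKO, 43.7 to 51.3 CPM in CARM1 knockout and 49.2 to 55.5 CPM in NFIB mutant, differences of 0.27 and 0.43 that fell short of the call.

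Falls at gene starts were common in this table with TMM scaling. Of 14863 peaks over protein-coding starts, 37.1% were called lower and 13.2% higher in CARM1 knockout, and 42.6% lower and 13.5% higher in NFIB mutant, with medians of -0.37 and -0.44 on the log2 scale. These shares and medians were found with TMM only, and library totals moved the median of all peaks by 0.57 in both mutants. Of the member falls, those at the Arf, Cdkn2c, Cdkn2d and Cdkn1b starts were not called with library totals. With TMM, 5 of the 11 member peaks that cover annotated starts of their own gene were called higher and 5 lower in each mutant. The broad Ccnd3 peak over its 6 further starts was called in neither. Member peaks at 21286710 to 21288773 (Cdkn2d) and 47501337 to 47502965 (Ccnd3) cover protein-coding starts not annotated to these genes. Both belong to the wider set of start peaks, and neither was called in either mutant. GC content moved with these changes over all starts. Among starts with 55 to 60% GC, 39.2% and 45.0% were called lower, and at 65% GC or more 55.5% and 65.4%. The start peaks that rose had 47.8% GC (p16INK4a), 52.2% (Cdkn2b), 57% (Ccnd1), 57.7% (Ccnd2) and 52.4% (Ccnd3), and those that fell 58.4% (Arf), 55.4% (Cdkn2c), 57.2% (Cdkn2d), 56.2% (Cdkn1b) and 66.2% (Cdkn1c). The part of GC content in the members' changes was not tested.

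The same words were searched in the middle 300 bp of each peak. TTGGC was in 23 of the 43 member peaks (53.5%) and in 50.6% of all 111116 peaks, and the full nuclear factor I site was in 0 of them and in 0.099% of all. TGANTCA, the AP-1 word, was in 3 member peaks, 1 each of Cdkn2a (89277436 to 89278143), Ccnd2 (127154309 to 127155431) and Ccnd3 (47522940 to 47523699), and in 23.8% of all peaks. TTTCGCGC was in 1, the broad 3′ peak of Ccnd3, and in 0.0738% of all. TTTGGCGC and TTTCCCGC were in 0 member peaks and in 0.261% and 0.47% of all.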

How the data were processed

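The deposited values are raw counts, per gene from htseq-count for RNA-seq and, for ATAC-seq, per peak of 1 common set from featureCounts 1.6.3, per the file headers. Coordinates are GRCm38. The column names C, KO and N were read as standing for TKO, then CARM1 knockout, then NFIB mutant, and 0 columns of per-sample values were left unused. The 5 summary entries of the RNA-seq table that name no gene stayed out (no feature 9.995 to 12.2% of the counts in TKO and 3.65 to 5.17% in the mutants, ambiguous 3.84 to 4.50%, not unique 3.18 to 6.31%).

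Counts were fitted in R 4.3.3 with edgeR 4.0.16 (TMM, filterByExpr, robust quasi-likelihood test, Benjamini-Hochberg over all genes or peaks) in 1 model of 9 libraries, and with DESeq2 1.42.0 as an alternative; limma 3.58.1, Python 3.11.15, numpy 2.4.6, pandas 2.3.3 and matplotlib 3.10.9 were used. Fits were tested on simulated data. A count of 3 was taken as the limit of detection, and such limits cover counting error only.

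The 9 genes, the lists and the rules were chosen with earlier results of these data known. Named were all 9 genes, Cdkn1a, Cdk4, Cdk6, Rb1 and the 5 listed pathway genes with the largest mean change called alike in both mutants, the peak with its middle within 1000 bp of each gene start, and the 2 peaks per gene with the largest change called alike and at least 3 CPM. E2f4, Fbxo4 and peaks outside the rule were named after their values were seen. Protein sequences were not used here.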

Additional observations from a re-analysis of the deposited data

How the results depend on the processing

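Calls of the 9 genes were the most stable result. In each mutant 7 were called under all alternatives except that at least 10 counts in every library left 8 genes, without Ccnd2, and 6 calls. Called pathway genes in CARM1 knockout went from 25 to 16 without TKO replicate 1 and to 14 without CARM1 knockout replicate 1, and between the mutants from 0 to 1 with DESeq2. Member peak counts also moved, with 15 in CARM1 knockout (13 higher, 2 lower) at an adjusted p under 0.05 and a log2 fold change of at least 1, 73 and 77 in CARM1 knockout and NFIB mutant with windows extended by 50000 bp, which hold more peaks, and 1 between the mutants with DESeq2.

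Directions that reversed belong to differences that were not called, or to a start peak under other scaling. Cdkn2d in NFIB mutant was -0.000667 with DESeq2 size factors, -0.32 with library totals, -0.045 with at least 10 counts in every library, and -0.15 to 0.21 with single libraries left out. The Cdkn2c start peak in CARM1 knockout was 0.0028 with library totals. Between the mutants, leaving out single libraries gave -0.069 to 0.15 for Cdkn2b, -0.30 to 0.15 for Cdkn2c and -0.39 to 0.10 for Cdkn1b. For the start peaks it gave -0.14 to 0.10 at p16INK4a, -0.14 to 0.12 at Cdkn2b, -0.047 to 0.18 at Cdkn2c, -0.027 to 0.34 at Cdkn2d, -0.13 to 0.081 at Cdkn1b and -0.13 to 0.12 at Ccnd3, and -0.48 to 0.51 at the Ccnd3 peak at 47517944. With library totals Cdkn2b and Ccnd3 start peaks were 0.0063 and 0.0097. The cause was not tested.

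With the replicate number as a block, 7, 7 and 0 of the 9 genes and 24, 26 and 0 of the 43 peaks were called in CARM1 knockout, NFIB mutant and between them. Correlations of same-numbered libraries ran from -0.30 to 0.12 in RNA-seq and from -0.14 to 0.12 in ATAC-seq, so the numbers were not shown to pair the libraries. With 3 animals per genotype and marker levels that differ between genotypes, cell makeup and genotype cannot be told apart here.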

Other observations

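For each of the 9 genes, the 3 genes with the most similar pattern over the 9 RNA-seq libraries were found among 14016 genes, by the root mean square difference of centred log2 CPM. The nearest to Cdkn2a was Cdc42bpg, at 0.116 beside a spread of Cdkn2a itself of 0.970, and Sbno2 and Rab34 followed at 0.216 and 0.224. Cdkn2b had Snx33 nearest at 0.277 with a spread of its own of 1.99. Nearest to Ccnd1 was Erbb2 at 0.287, to Ccnd2 Vgll3 at 0.661, and to Ccnd3 St3gal2 at 0.199. For the genes that fell, Mphosph9 was nearest to Cdkn1b at 0.145 and Gm37941 to Cdkn1c at 0.574. Cdkn2c had Aste1 at 0.165 and Cdkn2d had Cic at 0.087. In no case was another of the 9 genes the nearest.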
